A study of Mus musculus with 2 samples.

Results

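Lipid-associated macrophage genes are a set of 10 genes, *Trem2*, *Tyrobp*, *Gpnmb*, *Spp1*, *Cd9*, *Cd63*, *Lgals3*, *Itgax*, *Mmp12* and *Lpl*, that are named for the lipid-loaded macrophages of fatty tissues. They were chosen by gene symbol out of 45777 genes of a liver RNA-seq table, and the estimated counts of all transcripts of a symbol were summed. The livers came from C57BL/6 N mice kept on a HFD (high-fat diet) for 18 weeks, starting at 7 weeks of age. After 13 weeks of the diet the mice received, through the retro-orbital sinus, either AAV-GFP as the control or AAV-*Wee1-AS*, a vector that overexpresses the antisense lncRNA *Wee1-AS*, and livers were taken 5 weeks later. The level of *Wee1-AS* itself was not analysed here. The AAV9 particles of AAV-*Wee1-AS* carry a CMV promoter and are not specific to hepatocytes, and the labels do not give the sex of the mice or say whether livers were pooled. The submitters mention 4 liver samples in their design note, and how these relate to the libraries is not given. With 1 library in each group, the groups were compared without replicates, so how much single mice vary is unknown and no test was run.

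Lipid-associated macrophages largely arise from recruited monocytes and gather around lipid-laden or dying cells in fatty liver and adipose tissue. The lipid-sensing receptor TREM2 signals through its adaptor TYROBP, and the cells take up and break down lipid and debris in their lysosomes. None of the 10 genes belongs to these cells alone. *Spp1* is also known from bile duct cells, *Lpl* from fat and muscle, *Itgax* from dendritic cells, and *Cd9* and *Cd63* from many cell types.

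The libraries held 55466182 estimated counts with AAV-GFP and 48079335 with AAV-*Wee1-AS*, and their 20 most abundant genes took 24.0% and 24.2% of these. Genes of hepatocytes were abundant in both, with 4690457 and 4913825 summed counts over 9 markers. Markers of macrophages were present in both as well: *Csf1r*, the receptor that keeps macrophages alive, had 6832 counts with AAV-GFP and 4315 with AAV-*Wee1-AS*. The ratio (AAV-*Wee1-AS* over AAV-GFP) is given on the log2 scale after TMM scaling, with a prior count of 2. Its exact (Clopper-Pearson) 95% interval comes from the counts of both libraries and covers only the error of counting. PCR copies of a molecule are counted as separate reads. The counts are labelled read counts, and whether both ends of a fragment were counted is not given. If they were, the intervals are too narrow. Across all genes this ratio fell with the GC content of the transcript (Spearman coefficient -0.69 over 14995 genes), so the ratio is also given with its trends along GC content and length taken out ("with the trends removed"). Whether a technical or a biological difference lies behind that trend cannot be told apart with 1 library per group.

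The genes of lipid-associated macrophages were mostly lower in the AAV-*Wee1-AS* liver. All 10 passed the filter of at least 10 counts in at least 1 library. Of these, 9 were lower with AAV-*Wee1-AS*, against 50.5% of the 15857 genes tested, and the counting interval of these 9 lay wholly below a log2 ratio of 0, against 38.0%. Further, 8 were below 0.5-fold, against 8.71% of the genes tested, and none was above 2-fold, against 22.2%. Past 2-fold in either direction were thus 8 of 10, against 31.0%. For the same 8 genes the whole counting interval lay below 0.5-fold, which held for 3.72% of the genes tested. For *Tyrobp* this was narrow, with an upper end of -1.02, and would not hold with a somewhat wider interval. The median log2 ratio of the 10 genes was -1.86, and that of all genes tested was -0.02. Since the tissue was whole liver, fewer cells of a type and less RNA per cell cannot be told apart. With the trends with GC content and length removed, all 10 genes were lower, against 50.5% of 14995 genes. Then 9 were below 0.5-fold, against 8.06%, and none was above 2-fold, against 6.74%, with a median of -1.53. *Tyrobp* then left the genes below 0.5-fold, and *Spp1* and *Lpl* joined them. The shares of all genes given here also apply to the counts in every list below.

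**Figure D1:**
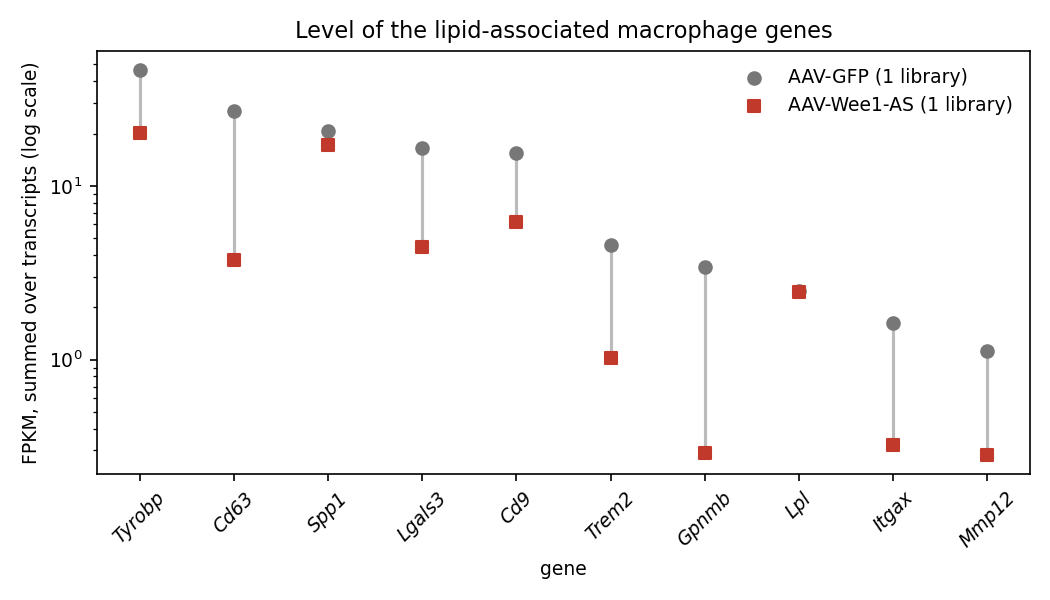
Level of each gene in FPKM (fragments scaled to transcript length and library size, log axis), summed over its transcripts, in the AAV-GFP library (grey circles) and the AAV-Wee1-AS library (red squares), 1 library each. The square sits below the circle for every gene except Lpl, where the symbols coincide at 2.48 and 2.45 FPKM, and the gap is widest for Gpnmb.

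Compared per length in FPKM, the levels of the genes spanned 41.2-fold in the AAV-GFP library and 71.2-fold in the AAV-*Wee1-AS* library. With AAV-GFP the order ran from *Tyrobp* at 46.5 FPKM over *Cd63* (27.1), *Spp1* (20.7), *Lgals3* (16.5) and *Cd9* (15.6) to *Trem2* (4.57), *Gpnmb* (3.40), *Lpl* (2.48), *Itgax* (1.62) and *Mmp12* (1.13). With AAV-*Wee1-AS* the order was *Tyrobp* at 20.2 FPKM, *Spp1* (17.3), *Cd9* (6.18), *Lgals3* (4.44), *Cd63* (3.76), *Lpl* (2.45), *Trem2* (1.02), *Itgax* (0.324), *Gpnmb* (0.290) and *Mmp12* (0.283). *Tyrobp* was the highest and *Mmp12* the lowest in both, while *Cd63* went from place 2 to place 5 and *Gpnmb* from place 7 to place 9. Without replicates, no neighbours in these orders can be said to differ beyond the spread between mice.

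The start regions of the genes are shown for the 4 members in which the same short motif was found. RefSeq promoter windows of the build GRCm38.p6, which hold 250 bases before and 50 bases from the start site, were matched by symbol for 8 of the 10 genes, with 10 windows in all. *Tyrobp* and *Lpl* were not matched. The letters TGANTCA, the recognition motif of AP-1, read the same on both strands. They were found in 4 of the 10 windows and in 7.81% of all 32851 windows of this length. Each of the 4 windows belongs to the start site of the most abundant transcript of its gene. The capitals mark the match, and the windows are chr6:49036268-49036567 for *Gpnmb*, chr17:48346151-48346450 for *Trem2*, chr7:128129300-128129599 for *Itgax* and chr9:7347124-7347423 for *Mmp12*, all on the plus strand and written 5′ to 3′.
Gpnmb: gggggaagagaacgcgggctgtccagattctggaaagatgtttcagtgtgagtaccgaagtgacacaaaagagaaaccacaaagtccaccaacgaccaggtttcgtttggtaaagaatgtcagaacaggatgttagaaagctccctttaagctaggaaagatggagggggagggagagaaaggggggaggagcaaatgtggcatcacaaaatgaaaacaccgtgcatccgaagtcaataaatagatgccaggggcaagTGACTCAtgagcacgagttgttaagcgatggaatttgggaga
Trem2: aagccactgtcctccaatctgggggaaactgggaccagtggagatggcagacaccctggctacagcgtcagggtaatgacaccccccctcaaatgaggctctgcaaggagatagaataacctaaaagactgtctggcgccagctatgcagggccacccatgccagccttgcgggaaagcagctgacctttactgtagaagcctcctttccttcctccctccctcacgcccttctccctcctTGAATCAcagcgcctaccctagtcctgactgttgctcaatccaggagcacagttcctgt
Itgax: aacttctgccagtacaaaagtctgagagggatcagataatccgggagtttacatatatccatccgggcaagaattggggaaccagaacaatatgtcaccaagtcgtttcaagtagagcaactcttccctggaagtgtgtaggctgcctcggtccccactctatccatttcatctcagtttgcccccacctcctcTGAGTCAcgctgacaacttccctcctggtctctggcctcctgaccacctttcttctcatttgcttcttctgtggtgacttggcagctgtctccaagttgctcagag
Mmp12: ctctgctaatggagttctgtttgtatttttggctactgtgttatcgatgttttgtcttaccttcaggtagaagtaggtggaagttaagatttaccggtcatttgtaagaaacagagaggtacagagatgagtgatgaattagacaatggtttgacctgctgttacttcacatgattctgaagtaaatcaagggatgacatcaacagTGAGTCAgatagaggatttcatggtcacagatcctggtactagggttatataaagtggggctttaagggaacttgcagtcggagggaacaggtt

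The match began 9 bases into the transcript in *Gpnmb*, and 9, 56 and 44 bases before the start site in *Trem2*, *Itgax* and *Mmp12*. All 4 of these genes were below 0.5-fold, and so were *Cd9*, *Lgals3* and *Cd63*, whose windows do not hold these letters. The *Spp1* windows do not hold them either. The other motifs were searched on both strands. GAGGAA, a core of sites of the macrophage factor PU.1, was in 4 of the 10 windows (*Spp1*, *Mmp12*, *Cd63* and *Trem2*) and in 28.3% of all windows. Its match in *Mmp12* lies in the window of a start site whose transcript had 0 counts in both libraries. The E-box CATGTG was in 2 (*Cd9* and *Mmp12*) and in 14.2% of all, and the E-box CACGTG was in 0 of 10 and in 7.15% of all. None of these matches shared bases with a TGANTCA match. The *Cd63* window belongs to the start site of a variant with 1 and 2 counts and not at its main transcript. The motifs were chosen with the sequences in view, and a match is not evidence of binding.

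The receptor gene *Trem2* (NCBI gene 83433, chromosome 17, 48346401 to 48352276 in mm10) had 322 counts with AAV-GFP and 62 with AAV-*Wee1-AS*. Its level went from 4.57 to 1.02 FPKM. The ratio was 4.23-fold lower, -2.08 on the log2 scale (95% counting interval -2.53 to -1.72). The transcript has a GC content of 57.5%, the highest of the 10 genes, and with the trends removed the ratio was -1.31. Of its annotated transcripts, variant 1 had 305 and 62 counts. Variant 2 had 17 counts with AAV-GFP and 0 with AAV-*Wee1-AS*. The upper end of the counting interval of its log2 ratio was -1.78, and the error of splitting reads between the variants is not known.

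*Tyrobp* (DAP12, gene 22177, chromosome 7, 30413782 to 30417582) encodes the adaptor that carries the activating signal of TREM2 and of several other myeloid receptors. It had 1720 counts with AAV-GFP and 644 with AAV-*Wee1-AS*, so it was 2.22-fold lower. The log2 ratio was -1.15 (-1.29 to -1.02), closer to the 2-fold limit than that of any other member below it, and with the trends removed it was -0.41. The receptor was thus lower than its adaptor relative to AAV-GFP, with counting intervals that did not overlap, and *Tyrobp* stood above *Trem2* in FPKM in both libraries. The adaptor was past 2-fold only where the trends with GC content and length, which were removed together, were left in.

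*Gpnmb* (gene 93695, chromosome 6, 49036518 to 49058182), which encodes a transmembrane glycoprotein made by macrophages under lysosomal stress, had the lowest ratio of the set. Its counts were 831 with AAV-GFP and 62 with AAV-*Wee1-AS*, and its level was 3.40 and 0.290 FPKM. It was 10.9-fold lower, with a log2 ratio of -3.44 (-3.88 to -3.11), and was number 44 from the bottom among the 15857 genes tested. The value hardly moved with the trends removed (-3.63).

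*Cd63* (gene 12512, chromosome 10, 128896231 to 128912822), a tetraspanin of late endosomes and lysosomes, had 1579 counts with AAV-GFP and 191 with AAV-*Wee1-AS*. It was 6.83-fold lower, at -2.77 (-3.01 to -2.57), and at -2.69 with the trends removed. Variant 2 held 99.9% of its counts with AAV-GFP and 97.9% with AAV-*Wee1-AS*. The counting interval of *Gpnmb* lay wholly but narrowly below that of *Cd63* (upper end -3.11 against lower end -3.01), while those of *Cd63* and *Itgax* overlapped.

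*Cd9* (gene 12527, chromosome 6, 125460266 to 125494760), a tetraspanin of the cell surface, was lower to a smaller degree. It had 1199 counts with AAV-GFP and 411 with AAV-*Wee1-AS*, a 2.42-fold difference and a log2 ratio of -1.28 (-1.45 to -1.12). Its transcript is poor in GC (45.9%), and with the trends removed the ratio was -1.74. Both tetraspanins were thus below 0.5-fold in either form of the ratio, and *Cd63* was the lower of them in both.

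**Figure D2:**
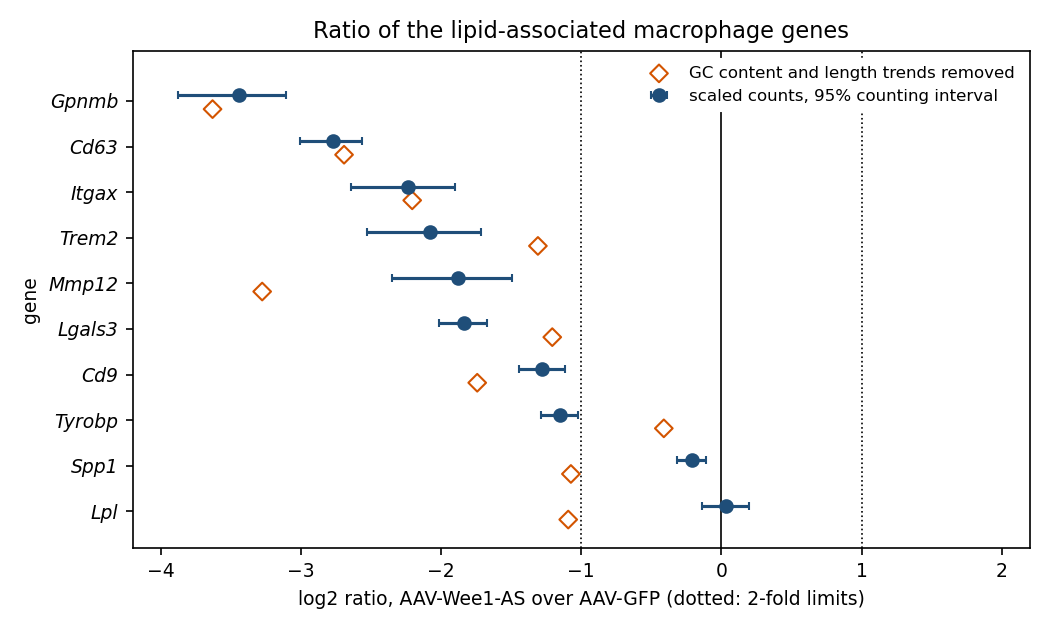
Log2 ratio (x axis, AAV-Wee1-AS over AAV-GFP) of each gene, as scaled counts with the 95% counting interval (blue) and after removal of the GC and length trends (orange diamonds). From Gpnmb to Tyrobp, 8 genes lie left of the 0.5-fold line at -1, and without the trends Tyrobp moves right of it to -0.41 while Spp1 and Lpl move left of it to -1.07 and -1.09.

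*Itgax* (gene 16411, chromosome 7, 128129526 to 128150657) encodes integrin alpha X, CD11c, which pairs with the beta 2 chain on macrophages and dendritic cells. It had 421 counts with AAV-GFP and 73 with AAV-*Wee1-AS*, 1.62 and 0.324 FPKM. The ratio was 4.71-fold lower, at -2.24 (-2.64 to -1.90), and -2.21 with the trends removed. The gene of its partner chain, *Itgb2*, had 1245 and 593 counts and a log2 ratio of -0.80 (-0.95 to -0.66). Of 10 genes of dendritic cells, 4 were below 0.5-fold and 2 were above 2-fold, against 8.71% and 22.2% of all genes tested. They summed to 1550 and 803 counts, with none at 0 in both libraries. Those with the most counts were *Irf8* at 904 and 345 (log2 ratio -1.12), *Cd83* at 252 and 93 (-1.16), *Zbtb46* at 127 and 199 (0.90) and *H2-DMb2* at 111 and 42 (-1.11). With the trends removed, 3 of the 10 were below 0.5-fold and none was above 2-fold. The part of dendritic cells in the *Itgax* ratio was not tested.

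Among the genes of secreted proteins, *Lgals3* and *Mmp12* were below 0.5-fold with or without the trends, and *Spp1* was so only with the trends removed. *Lgals3* (gene 16854, chromosome 14, 47373860 to 47386167), the gene of a lectin that binds galactose-containing sugars, had 1486 counts with AAV-GFP and 346 with AAV-*Wee1-AS*. It was 3.56-fold lower, at -1.83 (-2.01 to -1.67), and at -1.21 with the trends removed. The counts of its variant 1 were 904 and 246 and those of variant 2 were 582 and 100. Variant 2 therefore went from 39.2% to 28.9% of the gene's counts. These are estimated shares of nearly identical transcripts, and no error of the split is known.

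*Mmp12* (gene 17381, chromosome 9, 7344397 to 7360461), which encodes an elastin-degrading metalloproteinase of macrophages, was the least abundant member. It had 262 counts with AAV-GFP and 58 with AAV-*Wee1-AS*, 1.13 and 0.283 FPKM. The ratio was 3.68-fold lower, at -1.88 (-2.35 to -1.50). It has the lowest GC content of the set (40.1%), in a range where most genes were higher with AAV-*Wee1-AS*, and with the trends removed its ratio was -3.28, next to that of *Gpnmb*.

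*Spp1* (gene 20750, chromosome 5, 104435111 to 104441053), the gene of osteopontin, a secreted matrix protein and integrin ligand, differed little between the libraries in scaled counts. It had the most counts of the set, 1900 with AAV-GFP and 1365 with AAV-*Wee1-AS*, and 20.7 and 17.3 FPKM. The log2 ratio was -0.21 (-0.31 to -0.11), a 1.16-fold difference. With the trends removed it was -1.07, so a call past 2-fold rests on the removal of both trends together. Bile duct cells are a known source of *Spp1*. Of 10 cholangiocyte markers, 8 passed the filter, 1 was below 0.5-fold and 1 above 2-fold (1 and 0 with the trends removed), and they summed to 1311 and 1323 counts with none at 0 in both. *Krt19* had 72 and 37 counts, *Krt7* 37 and 27, and *Epcam* 54 and 49. The part of cholangiocytes in the *Spp1* level was not tested.

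The *Spp1* transcripts did not move alike. Variant 4, with 81.7% and 84.1% of the gene's counts, had 1552 and 1148 counts and a log2 ratio of -0.17 (-0.28 to -0.06). Variant 3 had 151 and 161 counts and a ratio of 0.35 (0.03 to 0.69). Variant 2 had 143 and 18 counts and a ratio of -2.61 (-3.52 to -2.01), and it went from 7.53% to 1.32% of the gene's counts. Variants 1 and 5 had at most 36 counts in a library. The transcripts overlap, and the intervals do not cover the error of assigning reads among them.

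**Figure D3:**
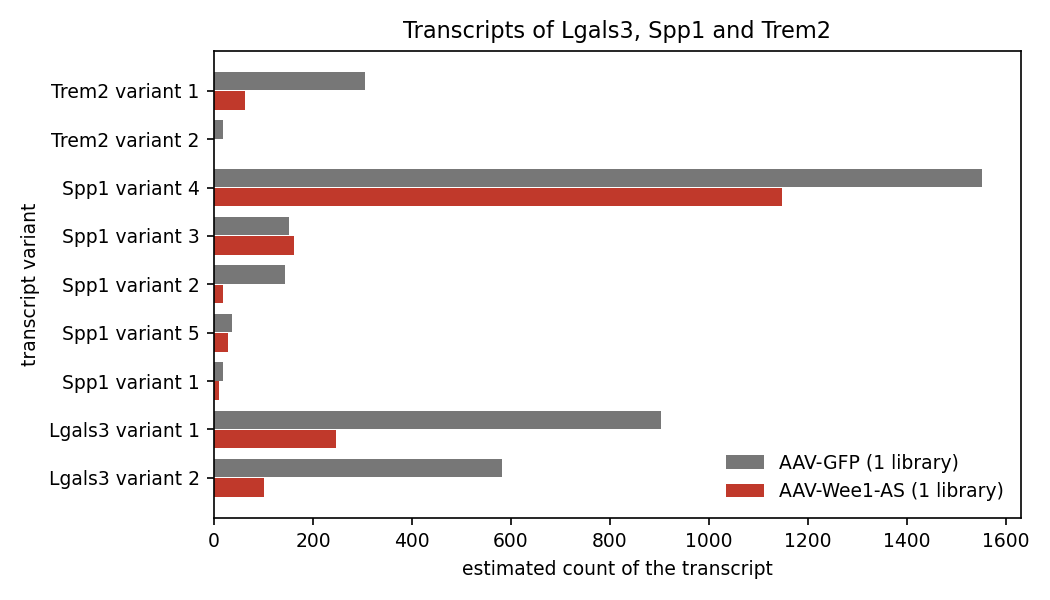
Estimated counts (x axis) of the annotated transcript variants of Trem2, Spp1 and Lgals3 with at least 10 counts in a library, with AAV-GFP in grey and AAV-Wee1-AS in red, 1 library each. Spp1 variant 4 makes up most of the gene in both libraries (1552 and 1148 counts), while Spp1 variant 2 goes from 143 to 18 and Trem2 variant 2 from 17 to 0.

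*Lpl* (gene 16956, chromosome 8, 68880555 to 68906932) encodes lipoprotein lipase, which releases fatty acids from the triglycerides of circulating lipoproteins. It was the only member not lower in the scaled counts, with 648 counts with AAV-GFP and 551 with AAV-*Wee1-AS* and 2.48 and 2.45 FPKM. The log2 ratio was 0.03 (-0.14 to 0.20), so no difference was detectable at this depth. It too is a GC-poor transcript (43.5%), and with the trends removed the ratio was -1.09. Of 8 adipocyte markers, *Plin1* and *Lep* were at 0 in both libraries and *Adipoq* had 2 counts in each, while 4 passed the filter. Of these 4, the lipid droplet gene *Cidec* was below 0.5-fold (7683 and 1236 counts), while *Plin4* had 3464 and 1723 (log2 ratio -0.74), *Cfd* 492 and 431 (0.07) and *Fabp4* 399 and 408 (0.29). The 8 markers summed to 12040 and 3804 counts, of which *Cidec* and *Plin4* made up most, and their part in the *Lpl* level was not tested. Of 6 muscle markers, 5 were at 0 in both libraries, and *Des* had 401 and 222 counts.

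**Figure D4:**
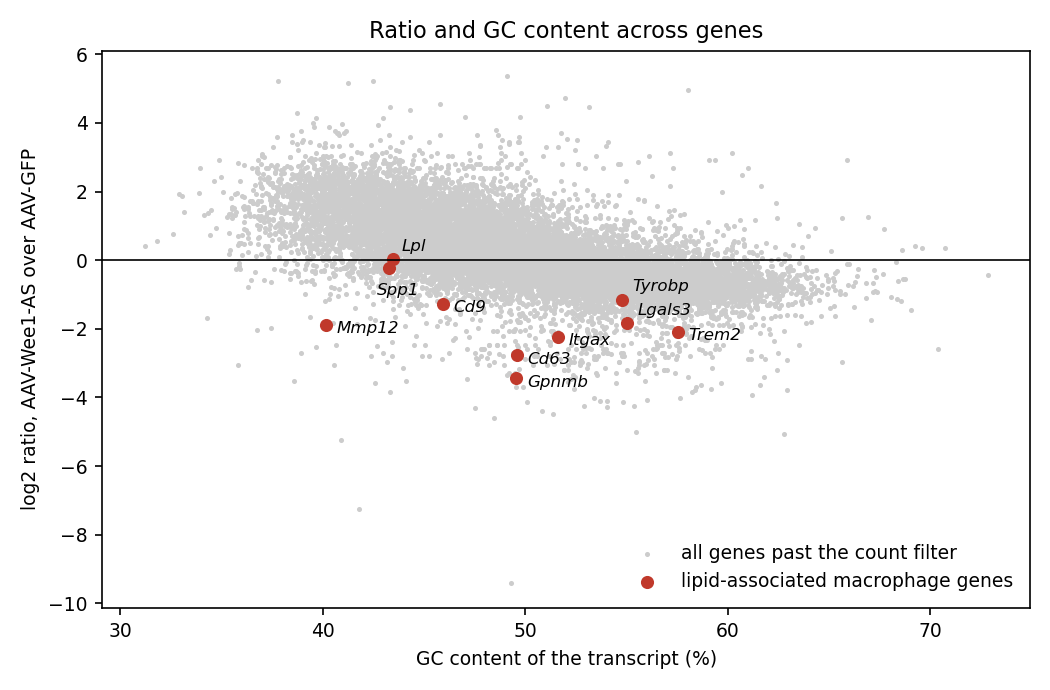
Log2 ratio (y axis, AAV-Wee1-AS over AAV-GFP) against the GC content of the transcript in percent (x axis) for 14995 genes past the count filter (grey) and the 10 lipid-associated macrophage genes (red). The grey cloud falls from left to right, Spp1, Lpl and Mmp12 lie below its middle at a GC content of 40.1% to 43.5%, and Tyrobp lies within it at 54.8%.

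The members were set beside general macrophage markers to see how far they followed them. Of 16 genes of all macrophages, 5 were below 0.5-fold and 2 above 2-fold, with a median log2 ratio of -0.66 and summed counts of 38138 with AAV-GFP and 27154 with AAV-*Wee1-AS*. They did not move alike: the complement genes *C1qb* (6209 and 2563 counts, -1.01) and *C1qa* (5990 and 2654, -0.91) were lower, *Csf1r* was at -0.40, and *Mpeg1*, the gene of a pore-forming protein, was higher (2489 and 7038, 1.76). With the trends removed, *C1qb* was at -0.25, *C1qa* at -0.08, *Csf1r* at -0.18 and *Mpeg1* at 0.93, all within the 2-fold limits. *Gpnmb*, *Cd63*, *Itgax*, *Trem2*, *Mmp12* and *Lgals3* each had a lower ratio than every one of the 16, the lowest of which was *Ms4a7* at -1.75. With the trends removed, 2 members, *Gpnmb* and *Mmp12*, were lower than every one of them, *Ms4a7* then being at -2.70. Of the 16, 2 were then below 0.5-fold and 1 above 2-fold, with a median of -0.26. For 1000 summed counts of the 16 markers, *Gpnmb* had 21.8 counts with AAV-GFP and 2.28 with AAV-*Wee1-AS*. By the same measure *Cd63* had 41.4 and 7.03, *Mmp12* 6.87 and 2.14, *Trem2* 8.44 and 2.28, and *Tyrobp* 45.1 and 23.7. *Spp1* had 49.8 and 50.3, and *Lpl* had 17.0 and 20.3. In these counts, most members were thus lower also as a share of the summed marker counts, with *Spp1* level and *Lpl* slightly higher. That sum includes *Mpeg1*, with 2489 of 38138 counts with AAV-GFP and 7038 of 27154 with AAV-*Wee1-AS*, so the shares depend on it. Set against the median log2 ratio of the 16 markers, *Spp1* differed by 0.44, *Lpl* by 0.69 and *Tyrobp* by -0.49. With the trends removed, these differences were -0.82, -0.84 and -0.15, so those of *Spp1* and *Lpl* changed sign.

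Markers of resident Kupffer cells, the embryonically seeded macrophages of the liver, did not move with the set. Of 12 such genes, none was below 0.5-fold and 5 were above 2-fold, against 8.71% and 22.2% of all genes tested. Their median was 0.38, with summed counts of 43655 and 37157. *Clec4f* had 7220 and 5418 counts (log2 ratio -0.15, -0.20 to -0.10), *Cd5l* had 13953 and 6876 (-0.76), *Nr1h3* 8704 and 4724 (-0.62) and *C6* 6246 and 8361 (0.68), and *Cd163*, a scavenger receptor, had 231 and 1254 (2.69, 2.50 to 2.91). With the trends removed, none of the 12 was below 0.5-fold and 2 were above 2-fold, with a median of 0.16. Of 11 monocyte markers, 6 were below 0.5-fold and none was above 2-fold, against the same shares of all genes. Their median was -1.02, and -1.03 with the trends removed. *S100a4* had 102 and 19 counts, *S100a6* 196 and 63, *Plac8* 543 and 324, and *Cx3cr1* 187 and 72. The sum of the monocyte list, 119563 and 114496 counts, is almost wholly *Fn1* (118250 and 113849), which hepatocytes also make.

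A further 20 genes that are often named with these macrophages were taken as a list. Of these, 10 were below 0.5-fold, 10 were between the limits and none was above 2-fold, with a median of -0.95 and, with the trends removed, 11 below 0.5-fold and a median of -1.02. *Capg*, an actin-capping protein gene, had 736 and 108 counts and a log2 ratio of -2.49 (-2.81 to -2.21). *Anxa5* had 17614 and 4782 counts (-1.62, -1.66 to -1.57), and *Lgals1*, the gene of galectin-1, had 13840 and 3868 (-1.58, -1.63 to -1.52). *Axl*, a receptor for dead cells, had 3218 and 1746 (-0.62). *Igf1*, which hepatocytes make in large amounts, had 9814 and 14221 (0.80), but turned to -1.14 with the trends removed. The median of this list lay between that of the 10 members and that of all genes tested.

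**Figure D5:**
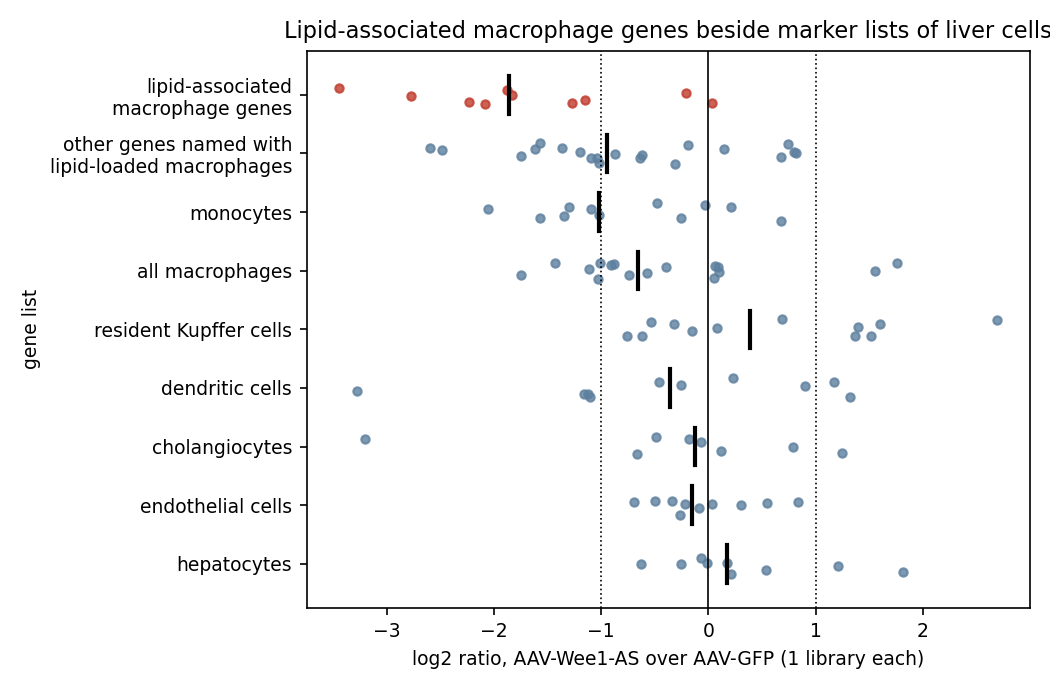
Log2 ratio (x axis, AAV-Wee1-AS over AAV-GFP) of the lipid-associated macrophage genes (red) and of the genes of other lists (blue), 1 point per gene with vertical scatter for legibility only. Black bars are medians, from -1.86 for the lipid-associated macrophage genes over -1.02 for monocytes and -0.66 for all macrophages to 0.38 for resident Kupffer cells, and dotted lines are the 2-fold limits.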

How the data were processed

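Poly-A RNA of 1 liver library per group was sequenced as 2 ends per fragment with a stranded kit. The authors deposited, for 129299 RefSeq transcripts of the build mm10, an estimated count, an FPKM and a TPM value per library. The deposited estimated counts are whole numbers, are not normalized and are shared out among overlapping transcripts. The deposited FPKM values are scaled by the authors for length and library, and the deposited TPM values also to an equal sum. The submitters' processing notes name Trimmomatic 0.38, HISAT2 2.1.0, SAMtools 1.9 and StringTie 2.1.3b. No column of the authors' comparisons was used.

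Counts were summed per symbol and scaled by TMM (edgeR 4.0.16, R 4.3.3; factors 1.02 and 0.980). Genes that reached 10 counts in either library were kept. Calls were ratios above 2 or below 0.5, without a test. The members and lists were chosen with earlier results of these data known. GC content came from the longest protein-coding GENCODE transcript and was found for 94.6% of genes and for all 10 members. Trends with GC content and length were removed by lowess (span 0.3, 5 cycles; statsmodels 0.14.6). The steps were tested on simulated data. All members are named, and of each other list the 4 genes with the most counts and any past 4-fold with at least 100 counts. Genes named beyond this rule were chosen after their values were seen. Alternatives were other scalings, filters, prior counts, units and transcript sets, and removal of the trends. One gene of the lists is not reported here.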

Additional observations from a re-analysis of the deposited data

How the results depend on the processing

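Under 13 alternatives, 130 ratios of single members were computed, of which 22 lay outside the counting interval of the main value. The number of members past 2-fold was 8 under each of the other scalings, filters, prior counts and transcript sets and with TPM, 6 with FPKM and a pseudocount of 1, and 9 with the trends with GC content and length removed. All of these were below 0.5-fold, and the share of all genes below 0.5-fold was 1.94% with FPKM, 2.76% with TPM, 8.06% with the trends removed and 6.13% to 14.1% under the others. The median of the members was -1.18 with FPKM, -1.29 with TPM (both with a pseudocount of 1, which pulls low values together) and -1.53 with the trends removed. With FPKM, *Itgax* (-0.98) and *Mmp12* (-0.73) were no longer past 2-fold, and with the trends removed *Tyrobp* (-0.41) was not, while *Spp1* (-1.07) and *Lpl* (-1.09) were. *Gpnmb*, *Cd63*, *Trem2*, *Lgals3* and *Cd9* were below 0.5-fold under all 13, and *Lpl* ranged from -1.09 to 0.09 and was below 0 in 5 of them. Scaling by the upper quartile moved the median of all genes from -0.02 to -0.22 and the share of higher genes among all calls from 71.9% to 56.8%. Removal of the trends moved that share to 45.5%. No paired analysis was possible because each group has 1 library. Leaving out a replicate was likewise not possible. Depth limits *Mmp12*, *Trem2*, *Gpnmb* and *Itgax*, which had 58 to 73 counts with AAV-*Wee1-AS*, and the minor transcript variants.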

Other observations

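Around the receptor, the genes of TREM2 and TYROBP signalling and shedding did not move as a block. Of 25, 22 passed the filter, 5 were below 0.5-fold and 5 above 2-fold, against 8.71% and 22.2% of all genes tested. The part above 2-fold was thus close to that of all genes. The median was -0.53 (-0.36 with the trends removed, with 5 below and 2 above, against 8.06% and 6.74%). *Malt1* was 51 and 194 counts (2.14, 1.74 to 2.67) with AAV-GFP and AAV-*Wee1-AS*, while the kinase gene *Syk* was 722 and 397 (-0.60), *Pik3ap1* 5536 and 3576 (-0.37), *Grb2* 3001 and 2208 (-0.18) and *Ptpn6* 2193 and 1128 (-0.69). The sheddase genes *Adam10* (322 and 979 counts, 1.86) and *Adam17* (277 and 764, 1.72), which cut TREM2 from the cell surface, were above 2-fold in scaled counts, as were 22.2% of all genes tested, and neither was with the trends removed (0.51 and 0.78). *Apoe*, a ligand of TREM2 made chiefly by hepatocytes, had 1669532 and 859945 counts (-0.69), but its ratio was 0.11 with the trends removed and its level was 8680 and 12118 FPKM, so its direction depends on the measure. Of 28 lysosomal and lipid-handling genes, 4 were below 0.5-fold and 3 above 2-fold, with a median of -0.47, and with the trends removed 3 were below and none above, with a median of -0.47. *Plin2* (77555 and 37451 counts, -0.79), *Psap* (70169 and 30339, -0.95), *Ctsb* (64389 and 36719, -0.55) and *Lamp1* (63525 and 39058, -0.44) had the most counts, and hepatocytes make all of these.

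Beside the counts in the next lists, 8.71% of all genes tested were below 0.5-fold and 22.2% above 2-fold (8.06% and 6.74% with the trends removed). Of 16 genes of LPL regulators and related lipases, the median was -0.48, and with the trends removed none was past 2-fold. *Apoc2*, the activator of LPL, was below 0.5-fold (46052 and 15215 counts, -1.33). *Apoc1* had 300275 and 172427 counts (-0.54), *Apoa5* 115378 and 67878 (-0.50), *Apoc3* 113977 and 59314 (-0.68) and *Lrp1* 58041 and 43333 (-0.16). Of 13 receptors of osteopontin and galectin-3, 1 was below 0.5-fold and 3 above 2-fold (median 0.03), and with the trends removed 3 were below and 1 above (median -0.25). Among those with the most counts were *Lgals3bp* at 12779 and 5864 counts (-0.86), *Itgb5* at 8668 and 4148 (-0.80), *Itgb1* at 2655 and 6982 (1.66, and 0.77 with the trends removed) and *Itga9* at 1319 and 1307 (0.25). Of 6 beta 2 integrins and partners past the filter, 2 were below 0.5-fold and none above 2-fold (median -0.63), and with the trends removed none was past 2-fold. Those with the most counts were *Tln1* (-0.41), *Itgal* (-0.46), *Icam1* (-1.02) and *Itgb2* (-0.80). Of 16 other tetraspanins and partners, 2 were below 0.5-fold and 1 above 2-fold (median -0.54, 1 and 0 with the trends removed), with *Cd81* at -1.04, *Tspan31* at -0.24, *Cd82* at -0.67 and *Cd151* at -0.82. Of 5 other galectins past the filter, 2 were below 0.5-fold and 2 above 2-fold (median -0.59, 1 and 1 with the trends removed), with *Lgals9* at -0.59, *Lgals8* at 1.25 and *Lgals4* at 1.58, besides *Lgals1*. Of 8 relatives and inhibitors of MMP12 past the filter, 4 were below 0.5-fold and none above 2-fold (median -1.10, 3 and 0 with the trends removed), with *Timp1* at 160 and 24 counts (-2.39), *Mmp14* at -0.93, *Mmp19* at 0.20, *Timp2* at -0.75 and *Timp3* at 0.42. Of 10 MiT-TFE factors and targets, none was below 0.5-fold and 1 was above 2-fold (median -0.23, 0 and 0 with the trends removed), with *Sqstm1* at -0.84, *Mcoln1* at -0.51, *Tfe3* at -0.91 and *Flcn* at -0.81.

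Marker lists of other cells are set against the same shares, 8.71% below 0.5-fold and 22.2% above 2-fold. Here 2 of 5 neutrophil genes past the filter were below 0.5-fold and none was above 2-fold (median -0.47, 400 and 208 summed counts, *Ly6g* at 0 in both). Of 10 T and NK cell genes, 2 were below and 1 above (median -0.21, 285 and 233 counts), and of 7 B cell genes none was below and 2 were above (median 0.52, 0 and 1 with the trends removed, 1022 and 1234 counts). Of 10 stellate cell genes, 5 were below and 2 above (median -0.84, 4 and 0 with the trends removed), with *Col1a1* at -2.32, *Col1a2* at -2.02 and *Col3a1* at -2.03, and *Dcn* at 0.33 and *Reln* at 0.25. None of 10 endothelial genes was past 2-fold (median -0.15), and of 9 hepatocyte genes none was below and 2 were above (median 0.17), against 1 below and none above with the trends removed (median 0.15).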
